A study of Mus musculus with 28 samples.

Results

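The 6 arrays described here hold mouse CD8 T cells kept in culture for 2 days, 3 without and 3 with stimulation through the T cell receptor, out of 28 arrays in the series. Members were chosen by their titles alone, and all 12393 genes of the deposited table that carry 1 symbol were compared. The cells came from C57BL/6N mice whose CD8 T cells carry the OT1 receptor transgene, which sees an ovalbumin peptide on MHC class I. Both groups thus carry the same transgenic receptor. Unstimulated cells were kept in untreated wells, and stimulated cells in wells coated with antibodies to CD3 and CD28, given as 10 µg per ml. Both groups had interleukin 7 at 5 ng per ml, so the unstimulated cells are cytokine-kept and not freshly isolated cells. Antibody on plastic stands in for the peptide, for antigen presenting cells and for their costimulation. The cells were sorted again after culture and their RNA was amplified in 2 rounds before hybridization to Affymetrix Mouse 430A2 arrays. Replicates of a group are independent biological ones by the series' design text, and the labels used here give no age or sex and do not say whether animals were pooled. For 2 side comparisons, 6 arrays of AND receptor transgenic CD4 cells under the same conditions and 9 arrays of OT1 cells on day 5 were used. The day 5 cells had spent the same 2 days in culture and then 3 days in host mice. Cells called unstimulated had no antibody and hosts without antigen, cells called transient had antibody and hosts without antigen, and cells called continuous had antibody and hosts that express their antigen.

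A resting CD8 T cell is small, divides rarely and circulates between blood and lymph nodes under the control of factors such as KLF2. Engagement of the receptor and CD28 starts calcium, MAP kinase and NF-kB signals, and within days the cell grows, takes up and makes amino acids, nucleotides and lipids, and enters repeated division. It also becomes an effector cell that loads granules with granzymes and secretes cytokines such as interferon gamma. Brakes are induced with the drivers, among them inhibitory receptors and phosphatases of the MAP kinase path. Each of these programmes was read here through a list of its genes, 28 lists with 727 distinct measured genes.

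All values are log2 signals as deposited, a change is the stimulated mean minus the unstimulated mean, and 1 unit is a 2-fold difference. Levels of different genes cannot be set against each other, since probe sets differ in how well they bind. A gene is called where limma's adjusted p is below 0.05 over all genes tested, and rose and fell are used for called genes. Because less RNA per cell and fewer expressing cells cannot be told apart in bulk RNA, each change is of the sorted population.

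The third unstimulated array stands apart from both of its group mates. Its median signal was 4.97, beside 6.42 and 6.41 on the first and second unstimulated arrays and 6.29 to 6.35 on the stimulated arrays, and it was the lowest of the 3 unstimulated arrays at 11128 genes (89.8%). Its correlation with the group mates over all genes compared was 0.851 and 0.866, where those correlated at 0.981 with each other and the stimulated arrays at 0.986 to 0.994. Of the 7 CD8 lineage markers, the summed linear signal was 394.6 on the third unstimulated array, 15557.4 and 19249.9 on the others of that group, and 6058.1 to 9173.7 on the stimulated arrays. Cd8b1, the beta chain of the CD8 coreceptor, stood at 12.18, 11.62 and 4.79 on the unstimulated and 10.39, 10.22 and 10.36 on the stimulated arrays. Nkg7, a granule protein of cytotoxic cells, stood at 12.88, 12.81 and 6.39 and 12.06, 12.37 and 11.09, and Ctsw, a cathepsin of the same cells, at 11.47, 10.71 and 5.68 and 9.01, 8.48 and 7.99. On these 3 genes the third unstimulated array lies below every other array of both groups. Cd3d, a chain of the receptor complex, was at 13.20, 13.33 and 13.12 on the 3 unstimulated arrays. Thy1, a surface protein of all T cells, was at 11.88, 11.33 and 11.13, so these 2 general T cell genes were present on all of them. Cd3g, another chain of the complex, was lower on the third, at 12.70, 12.81 and 10.42. The summed linear signal of 9 general T cell markers was 29793.1, 27879.5 and 14228.0 on these arrays. The log2 signal of the 3' minus that of the 5' probe set for beta-actin, which grows as RNA or its amplified product shortens, was 2.28, 2.90 and 4.27 on unstimulated and 1.38 to 1.69 on stimulated arrays. This measure moves with stimulation as well as with the third array, and its part in the changes was not tested. Cd4, the coreceptor of helper cells, was at 7.35, 7.21 and 7.02 on the unstimulated arrays, so it was not higher on the third. The summed linear signal of 5 CD4 lineage markers was 940.4, 1091.8 and 466.7 on these arrays. Cd8a, the alpha chain of the CD8 coreceptor, was at 11.93, 11.65 and 5.78 on them, so the third array goes against its label on both CD8 chains. The third unstimulated CD4 array of day 2 goes against its own, with a median of 4.83, Cd8b1 at 10.50 and Cd4 at 5.40, where its group mates have Cd8b1 at 5.71 and 6.60 and Cd4 at 8.77 and 8.41. Both were kept in the groups their labels give, and all day 2 arrays share 1 estimate of spread. Results are therefore given from the 12-array fit, which keeps every array, and the value of the 10-array fit, which leaves out the third unstimulated array of each cell type, stands beside it for genes whose call it changes and for called genes it moves by over 1.5 times.

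**Figure D1:**
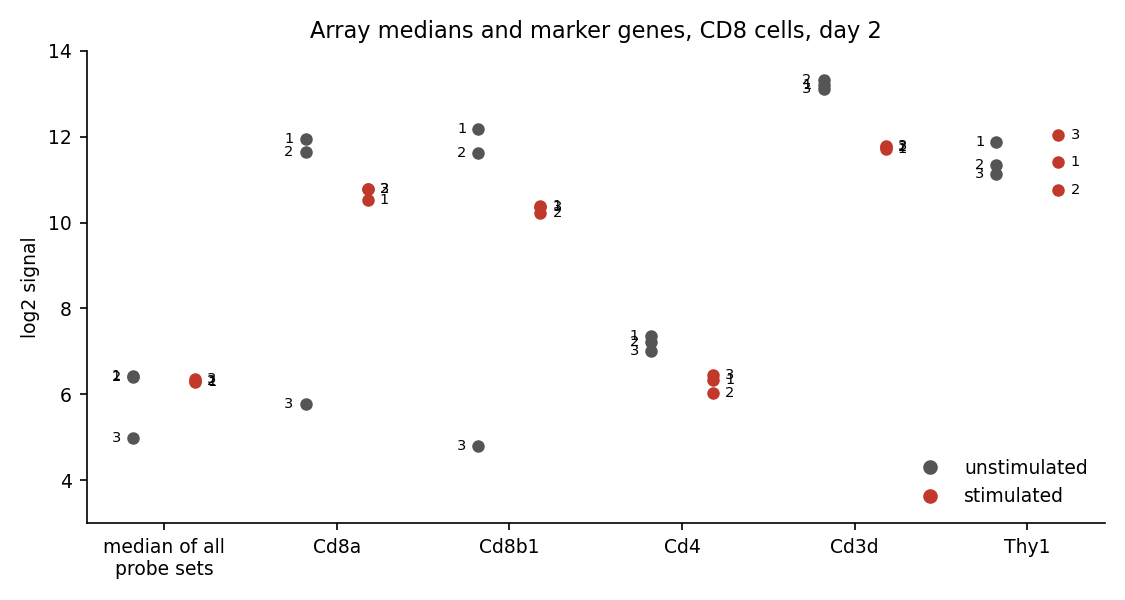
Array medians and 5 marker genes on the 6 CD8 arrays of day 2, as log2 signal (vertical axis), with unstimulated arrays in grey and stimulated arrays in red and the replicate number beside each point. The third unstimulated array has a median of 4.97 and Cd8b1 at 4.79, below the other 5 arrays, while its Cd3d signal of 13.12 is close to that of its group mates.

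In the 12-array fit 928 genes rose and 107 fell, which is 7.49% and 0.863% of the genes tested. The groups did not overlap in any of the 1035 called genes, beside 26.8% of all genes that were higher and 13.0% that were lower on every stimulated array than on every unstimulated array. The median change was 2.81 among the rises and -2.13 among the falls, and 378 rises and 16 falls were larger than 3 units. In the 10-array fit 2040 genes rose and 2651 fell, 16.5% and 21.4% of all. They include 923 of the 928 rises and all 107 falls. The list counts below stand against these shares and the 7.49% and 0.863% of the 12-array fit. The share of rises among called genes went from 89.7% to 43.5%, and the median of all genes from 0.14 to -0.22. The median standard error of a change went from 0.557 to 0.238. With the third CD8 array alone left out, 693 genes rose and 265 fell, of which 679 and 99 are called in the 12-array fit too. No gene was called in opposite directions in these fits. Quantile normalization of the 12 arrays gave 1309 rises and 1300 falls with a median of -0.15, and median centring 1892 and 3091 with a median of -0.48. Both settings rescale all 12 arrays. Leaving out 1 stimulated array lowered the calls to between 364 and 403 rises and 23 and 35 falls.

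**Figure D2:**
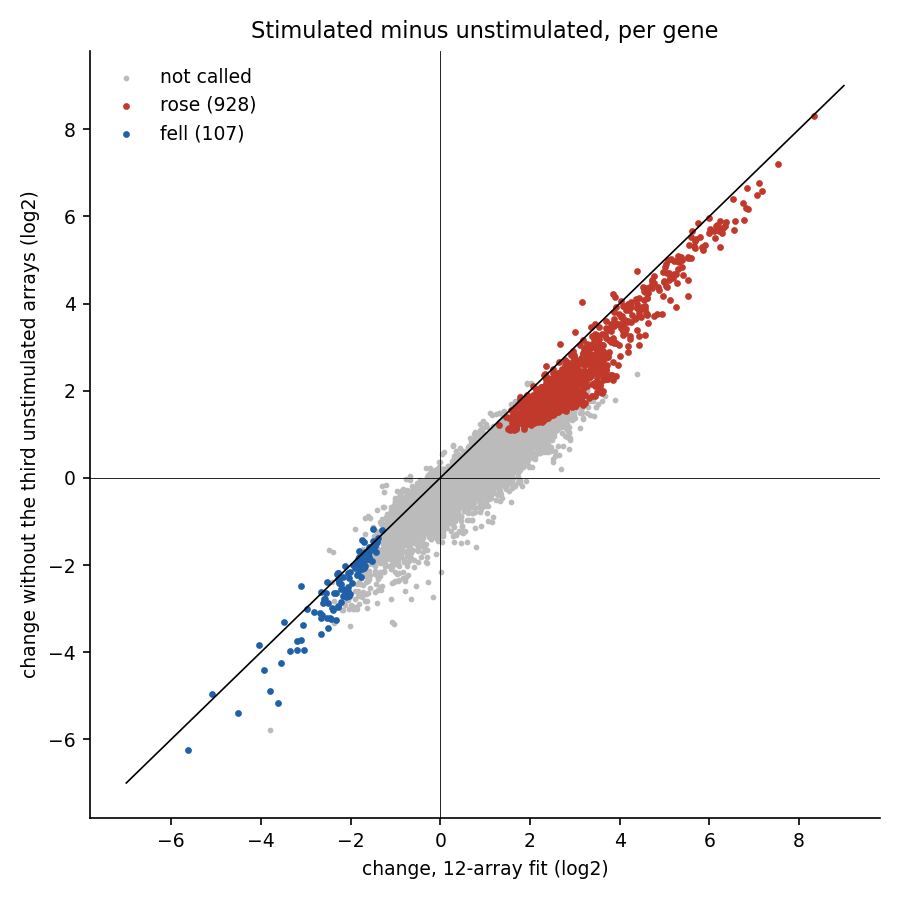
Change in log2 signal for each of the 12393 genes in the 12-array fit (horizontal axis) and in the fit without the third unstimulated arrays (vertical axis), with the 928 rises of the 12-array fit in red, the 107 falls in blue and other genes in grey. Of the rises 910 lie below the diagonal, with a smaller change without those arrays, and of the falls 89 lie below it, with a larger change.

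The 10 largest rises were in Cth, Gzmb, Asns, Plscr1, Cdca5, Cd83, Tnfsf11, Cdc6, Uhrf1 and Rrm2. Cth, which makes cysteine from cystathionine, was at 3.57, 4.27 and 3.79 on unstimulated and 12.27, 12.50 and 11.90 on stimulated arrays. Its highest unstimulated and lowest stimulated array stood 7.63 units apart and the rise was 8.34 (SE 0.54, adjusted p = 7.58e-06), with 8.30 in the 10-array fit. Gzmb, the protease granzyme B of killer granules, went from 5.59, 6.33 and 4.99 to 13.38, 13.02 and 13.09, a rise of 7.53 (SE 0.96, adjusted p = 0.000364). Asns, which makes asparagine, went from 5.56, 6.44 and 4.21 to 12.70, 12.71 and 12.32 (7.17, SE 0.64, adjusted p = 2.76e-05). The third unstimulated array was the lowest for Gzmb and Asns, and the unstimulated arrays spanned 1.33 and 2.23 units. Plscr1, a membrane protein that moves phospholipids between leaflets, rose by 7.11 (SE 0.61, adjusted p = 2.46e-05). Cdca5, which holds sister chromatids together, Cdc6, which licenses replication origins, Uhrf1, which keeps DNA methylation through division, and Rrm2, a subunit of the enzyme that makes deoxynucleotides, rose by 7.05, 6.82, 6.77 and 6.74. Cd83, a surface protein of activated lymphocytes and dendritic cells, rose by 6.86, and Tnfsf11, the ligand known as RANKL, by 6.84.

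The leading falls were headed by Klf2, the factor that keeps T cells quiet and in circulation. Klf2 stood at 11.93, 11.78 and 9.98 on unstimulated and 5.78, 5.42 and 5.65 on stimulated arrays and fell by 5.62 (SE 0.51, adjusted p = 3.21e-05), with -6.24 in the 10-array fit. Hcst, which encodes DAP10, the signalling adaptor of the NKG2D receptor, stood at 12.52, 12.05 and 12.70 and 7.48, 7.55 and 6.98. Hcst fell by 5.09 (SE 0.42, adjusted p = 2.46e-05), and here the third unstimulated array was the highest of its group. Actn2, an actin crosslinker best known from muscle, fell by 4.50 (SE 0.73, adjusted p = 0.00212), and Bbip1, a small part of the BBSome complex of cilia, by 4.03 (SE 0.50, adjusted p = 0.000285). Cd7, a surface protein of T cells, and Tec, a kinase downstream of the receptor, fell by 3.80 and 3.56, and Ptpn18, a tyrosine phosphatase, fell by 3.49. The interferon-inducible gene Ifi209 fell by 3.94, and Dleu2, a noncoding RNA gene that hosts the miRNAs miR-15a and miR-16-1, by 3.35. Ccl5, the chemokine RANTES that memory-type CD8 cells keep as ready mRNA, was at 11.85, 11.68 and 7.16 and 6.90, 6.57 and 6.37, so that the third unstimulated array lay near the stimulated ones. Its fall was 3.62 in the 12-array fit (adjusted p = 0.0418) and its change -5.16 in the 10-array fit (adjusted p = 5.24e-05).

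**Figure D3:**
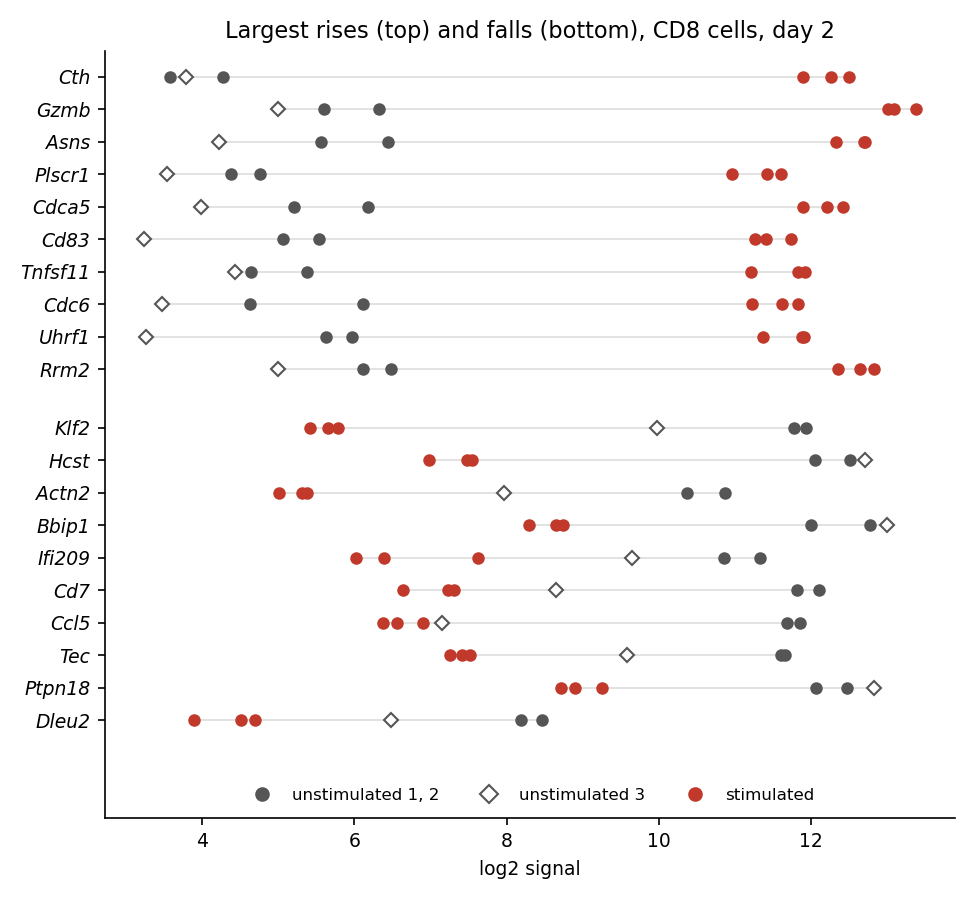
Log2 signal (horizontal axis) of the 10 largest rises and the 10 largest falls on each of the 6 arrays, with unstimulated arrays in grey, the third unstimulated array as an open diamond and stimulated arrays in red. In all 20 genes every stimulated array lies on 1 side of every unstimulated array, and for Ccl5 the third unstimulated array is the one nearest to the stimulated group.

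Most genes switched on by receptor signals rose. Of 25 measured genes of activation and receptor signalling 19 rose and none fell, with a list median of 3.98 beside 0.14 for all genes. In the 10-array fit 20 rose and 2 fell, with a median of 3.54 beside -0.22. Irf4, a transcription factor whose level follows receptor strength, was at 5.86, 6.20 and 4.34 and 11.62, 11.89 and 11.91 and rose by 6.34 (SE 0.62, adjusted p = 5.13e-05). Bhlhe40, a factor needed for cytokine production, went from 6.99, 6.29 and 5.11 to 12.51, 12.54 and 12.48 (6.38, SE 0.57, adjusted p = 2.82e-05). The stimulated arrays spanned 0.29 and 0.05 units, and every unstimulated array was at least 5.42 units lower. Il2ra, which completes the high-affinity receptor for interleukin 2, rose by 5.29, Cd44, an adhesion receptor of activated and memory cells, by 5.12, and the nuclear receptor gene Nr4a1 by 4.88. Tfrc, the transferrin receptor that brings in iron, was at 9.57, 9.89 and 5.29 and 10.45, 11.83 and 11.77. It was not called with 12 arrays (change 3.10, adjusted p = 0.0544) and was called with 10 (1.62, adjusted p = 0.0121). Hif1a (change 1.67, adjusted p = 0.159) and Icos (1.40, adjusted p = 0.133), the oxygen-sensing factor and a costimulator, were not called in either fit.

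Of 27 measured feedback genes, the brakes of receptor signalling, 7 rose and 2 fell (median 1.55), and 12 rose and 6 fell with 10 arrays (median 0.46). Rgs1 and Rgs2, which shorten G protein signals, rose by 5.65 (SE 0.54, adjusted p = 4.07e-05) and 3.34 (SE 0.59, adjusted p = 0.00381). Egr2, a factor that restrains T cells after receptor signals, was at 5.37, 5.04 and 2.75 and 9.29, 9.93 and 9.79 and rose by 5.28 (SE 0.65, adjusted p = 0.000284). Dusp6, a phosphatase that switches off ERK, rose by 3.84 with 12 and by 2.65 with 10 arrays, and Nrp1, a semaphorin receptor, by 3.64. The 2 falls of the 12-array fit were the diacylglycerol kinases, which end the lipid signal of the receptor. Dgka went from 11.38, 11.09 and 10.29 to 9.15, 8.18 and 8.43 (-2.33, SE 0.45, adjusted p = 0.00678) and Dgkz from 13.35, 13.58 and 12.99 to 11.97, 11.41 and 11.72 (-1.60, SE 0.38, adjusted p = 0.0208). For both the 2 groups were separate on all arrays. Of 24 genes of the receptor complex and its first kinases none rose, and Tec and Cd3d fell, the latter by 1.46 (SE 0.36, adjusted p = 0.0237). Cd3d was measured alike on all 3 unstimulated arrays, and its change was -1.51 with 10 arrays. With 12 arrays the falls were 8.33% of this list, beside 0.863% of all genes. With 10 arrays 3 of its genes rose and 9 fell, where 16.5% of all genes rose and 21.4% fell. The list's median was 0.14 in the 12-array and -0.67 in the 10-array fit. Cd3e (change -1.25, adjusted p = 0.0992) was called only in the 10-array fit among these 2 (-1.47, adjusted p = 0.00303), and Zap70, the kinase that docks on the complex, was called in neither (1.47 and 0.20).

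Among 24 transcription factors of effector and memory cells 6 rose (25.0%, beside 7.49% of all genes) and none fell (median 0.55). With 10 arrays 7 rose and 8 fell (median -0.01), where 16.5% of all genes rose and 21.4% fell. Tbx21, the gene of T-bet, the driver of type 1 effector fate, was at 6.03, 7.44 and 4.99 and 10.61, 10.43 and 10.81. It rose by 4.46 (SE 0.55, adjusted p = 0.000274), and its lowest stimulated array was 2.99 units above its highest unstimulated array. The NF-kB members Rel, Nfkb2 and Relb rose by 3.38, 2.99 and 2.92, and Nfatc1, a calcium-regulated factor, by 2.76 (SE 0.71, adjusted p = 0.0300). Eomes, the second T-box factor of CD8 cells, was at 8.35, 8.64 and 5.00 and 7.95, 7.16 and 7.37. The change was 0.16 (adjusted p = 0.954) with 12 arrays and -1.004 with the third CD8 array left out, where it was called without the third CD4 array as well (adjusted p = 0.0108) and not with it (adjusted p = 0.141). Runx3, which keeps the CD8 fate, had a change of -0.63 (adjusted p = 0.577) with 12 and of -0.94 (adjusted p = 0.00284) with 10 arrays. Myc, which drives growth and metabolism, was at 8.72, 8.65 and 5.19 and 10.47, 10.50 and 10.46. Its stimulated arrays spanned 0.04 units, and it rose by 2.96 (SE 0.74, adjusted p = 0.0265) with 12 arrays and by 1.79 with 10.

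Of 23 granule and death ligand genes of the killing programme 4 rose (17.4%, beside 7.49% of all genes) and none fell with 12 arrays, and the list's median of 0.05 lay below the 0.14 of all genes. Beside Gzmb these were Serpinb6b, Serpinb9 and Fasl. Serpinb9, which protects the killer cell from granzyme B, was at 8.17, 8.83 and 7.82 and 12.39, 12.61 and 12.27 and rose by 4.15 (SE 0.50, adjusted p = 0.000266). Serpinb6b, a related serine protease inhibitor, rose by 5.52 (SE 0.75, adjusted p = 0.000616). Fasl, the death ligand on killer cells, was at 4.06, 4.03 and 4.82 and 8.90, 8.00 and 7.68, with the third unstimulated array the highest of its group, and rose by 3.89 (SE 0.54, adjusted p = 0.000637). Prf1, the pore protein perforin, was at 7.81, 7.38 and 5.70 and 7.43, 7.11 and 6.83, and Gzma, granzyme A, at 6.58, 7.28 and 4.36 and 4.62, 4.58 and 5.83. For Prf1 the groups overlapped, and it was not called in either fit (changes 0.16 and -0.47, adjusted p = 0.929 and 0.248). Gzma was not called with 12 arrays (change -1.06, adjusted p = 0.445) and was lower with 10 (-1.92, adjusted p = 0.0334). Gzmm, granzyme M, was at 6.68, 6.16 and 6.45 and 5.27, 5.34 and 5.20, lower on all stimulated arrays, with changes of -1.16 (adjusted p = 0.0854) and -1.15 (adjusted p = 0.00388). With 10 arrays the list had 5 genes up and 5 down.

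Of 28 cytokine genes 8 rose and 1 fell with 12 arrays, and 9 rose and 3 fell with 10. Ifng, interferon gamma, was at 4.52, 4.31 and 3.31 and 10.19, 11.47 and 8.44. All stimulated arrays were at least 3.92 units above all unstimulated ones, but they spanned 3.03 units, and the rise was 5.99 (SE 0.99, adjusted p = 0.00241). Csf2, the growth factor GM-CSF, was at 5.29, 4.77 and 4.34 and 10.49, 10.59 and 10.45 and rose by 5.71 (SE 0.71, adjusted p = 0.000286). Il3, a growth factor of blood cell precursors, was at 8.36, 9.27 and 7.45 on stimulated arrays and rose by 4.97 (SE 0.79, adjusted p = 0.00174). Il2, the T cell growth factor, was at 5.05, 5.25 and 3.90 and 8.49, 9.51 and 8.02 and rose by 3.94 (SE 1.02, adjusted p = 0.0310). Cd70, the ligand of CD27, rose by 5.15 (SE 1.23, adjusted p = 0.0207). Lta and Lif, lymphotoxin alpha and leukemia inhibitory factor, rose by 3.63 and 2.71. Ltb, lymphotoxin beta, which resting lymphocytes express to organise lymphoid tissue, was at 13.07, 13.20 and 11.58 and 10.20, 9.29 and 10.46 and fell by 2.63 (SE 0.50, adjusted p = 0.00606). The third unstimulated array was the nearest to the stimulated ones, and the change was -3.15 with 10 arrays. Tnf, the classic early cytokine, was at 6.56, 6.91 and 5.31 and 7.33, 7.81 and 7.59 and was not called with 12 arrays (change 1.32, adjusted p = 0.283) or with 10 (0.84, adjusted p = 0.134). The list median was 0.71 with 12 and 0.35 with 10 arrays.

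Of 10 chemokine genes 4 rose and Ccl5 fell. Ccl3 and Ccl4, chemokines made by activated killer cells, were at 10.00, 10.74 and 9.25 and 11.19, 11.75 and 10.67 on the stimulated arrays. They rose by 5.58 (SE 0.96, adjusted p = 0.00316) and 4.19 (SE 0.93, adjusted p = 0.0142), and in both the second stimulated array was the highest. Xcl1, which draws cross-presenting dendritic cells, was at 5.72, 5.61 and 4.55 and 7.42, 9.26 and 7.21 and rose by 2.67 (SE 0.70, adjusted p = 0.0329). Cxcl10, the ligand of CXCR3, was at 5.82, 6.07 and 3.99 and 8.86, 8.32 and 8.01 and rose by 3.11 (SE 0.70, adjusted p = 0.0155). Ifng, Il3, Il2, Ccl3, Ccl4 and Xcl1 all were highest on the second stimulated array, and that order was read after the values were seen.

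Of 30 receptor chains, STAT genes and SOCS brakes 7 rose and 2 fell with 12 arrays, and 10 rose and 7 fell with 10. The share of falls was 6.67% with 12 arrays, beside 0.863% of all genes. Il7r, the receptor for the interleukin 7 in both cultures, was at 12.00, 12.52 and 10.62 and 7.83, 8.97 and 8.78. All stimulated arrays were lower, and the fall was 3.19 (SE 0.80, adjusted p = 0.0274). Il6ra, the chain that binds interleukin 6, was at 10.56, 10.41 and 8.22 and 6.45, 6.49 and 6.63 and fell by 3.20 (SE 0.63, adjusted p = 0.00735). Il6st, the shared signalling chain gp130, had a change of -2.05 (adjusted p = 0.0506) with 12 arrays and -2.81 (adjusted p = 0.000523) with 10. Against these, Il2rb and Il15ra, chains of the interleukin 2 and 15 receptors, rose by 2.44 and 2.91, and Il12rb1, a chain of the interleukin 12 receptor, by 3.44 (SE 0.57, adjusted p = 0.00255). The STAT5 gene Stat5a rose by 3.57 (SE 0.70, adjusted p = 0.00742), and the STAT5 targets and brakes Cish and Socs2 by 4.07 (SE 0.82, adjusted p = 0.00852) and 3.67 (SE 0.85, adjusted p = 0.0178). Il18r1, a receptor of innate-like signals, had a change of -2.16 (adjusted p = 0.187) with 12 and -2.87 (adjusted p = 0.0465) with 10 arrays.

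Inhibitory receptors and ligands gave 5 rises and no fall among 16 genes with 12 arrays, and 8 rises and 2 falls with 10 (medians 0.69 and 0.26). Ctla4, which competes with CD28 for its ligands, was at 6.64, 6.61 and 5.39 and 11.53, 11.21 and 11.21 and rose by 5.10 (SE 0.51, adjusted p = 5.81e-05). Pdcd1, the gene of PD-1, was at 5.13, 5.36 and 4.37 and 9.21, 8.82 and 8.26 and rose by 3.81 (SE 0.72, adjusted p = 0.00555). Cd200, whose protein quiets myeloid cells, and Pdcd1lg2, which encodes the PD-1 ligand PD-L2, rose by 5.53 and 4.72, and Cd5, a damper of receptor signals, by 2.67 with 12 and 1.68 with 10 arrays. Lag3 was at 6.30, 6.22 and 4.98 and 7.35, 7.02 and 6.77, without overlap, and was called with 10 arrays alone of the 2 fits (0.78, adjusted p = 0.0284, beside 1.21 and 0.201). Havcr2, the gene of TIM-3 that marks long-stimulated cells, was at 4.16, 4.43 and 4.12 and 4.17, 4.09 and 3.84 (change -0.21, adjusted p = 0.885). Among 12 killer lectin receptor genes and adaptors 1 rose and 1 fell with 12 arrays (8.33% each, beside 7.49% and 0.863% of all genes). Klrc1, the inhibitory NKG2A chain, rose from 3.96, 4.36 and 2.70 to 8.50, 8.59 and 7.09 (4.39, SE 0.54, adjusted p = 0.000281), and Hcst fell. With 10 arrays 2 rose and 4 fell, where 16.5% of all genes rose and 21.4% fell. Klrk1, the NKG2D receptor that signals through the Hcst product, was at 5.55, 5.23 and 6.53 and 7.34, 7.09 and 6.25, with overlap, and its change was 1.12 (adjusted p = 0.152) with 12 and 1.50 (adjusted p = 0.00524) with 10 arrays.

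Genes of the resting and recirculating state gave 5 falls and 2 rises among 33, and 20 falls and 2 rises with 10 arrays. The median was -0.41 and -1.08 in the 2 fits. S1pr1, the sphingosine phosphate receptor that lets T cells leave lymph nodes, was at 9.84, 9.89 and 7.85 and 6.73, 6.35 and 6.92. It fell by 2.53 (SE 0.53, adjusted p = 0.0104), and all unstimulated arrays were higher than all stimulated ones. S1pr4, a related receptor, fell by 2.03 (SE 0.59, adjusted p = 0.0484) and Rasgrp2, which activates the integrin switch Rap1, by 2.55 (SE 0.56, adjusted p = 0.0130). Ccr7, the receptor that brings T cells into lymph nodes, was at 10.66, 10.03 and 7.49 and 12.12, 11.79 and 11.84 and rose by 2.52 (SE 0.72, adjusted p = 0.0473) with 12 arrays and by 1.57 with 10. Klf4, a factor usually tied to rest, rose by 4.36 (SE 0.87, adjusted p = 0.00810). Lef1, a factor of naive cells, was at 7.39, 7.66 and 3.90 and 6.68, 6.19 and 6.35, with no call with 12 arrays (change 0.09, adjusted p = 0.982) and a lower level with 10 (-1.12, adjusted p = 0.0369). Ccr9, the gut homing receptor, was at 9.77, 10.34 and 4.07 on unstimulated and 3.95, 4.55 and 4.29 on stimulated arrays. The third unstimulated array sits inside the stimulated range, so the change of -3.80 was not called (adjusted p = 0.0977), while with 10 arrays it was -5.79 (adjusted p = 0.000115). Slfn1, of the schlafen family tied to T cell rest, had changes of -2.18 (adjusted p = 0.0772) and -3.03 (adjusted p = 0.00276).

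Most DNA replication genes rose. Of 48 measured genes 32 rose and none fell, with a median of 2.70, and with 10 arrays 39 rose with a median of 1.82. Mcm5, a subunit of the replicative helicase, was at 5.73, 4.69 and 3.17 and 10.86, 10.86 and 10.74 and rose by 6.29 (SE 0.59, adjusted p = 3.43e-05). Tk1, which salvages thymidine, was at 4.93, 4.90 and 3.23 and 10.49, 10.39 and 9.89 and rose by 5.91 (SE 0.77, adjusted p = 0.000423). The lowest stimulated array stood 5.01 and 4.96 units above the highest unstimulated array. Mcm3, another helicase subunit, and Pold2, of DNA polymerase delta, were at 9.71, 9.47 and 4.17 and at 9.08, 8.62 and 4.35 on unstimulated arrays, low on the third, and were not called with 12 arrays (changes 3.67 and 2.86, adjusted p = 0.0524 and 0.0882). With 10 arrays Mcm3 was called (1.87, adjusted p = 0.00336) and Pold2 was not (1.36, adjusted p = 0.0594). E2F factors are the known regulators of this gene class, and their usual site was searched as TTTCCCGC and TTTGGCGC on both strands of the RefSeq promoter windows of GRCm38.p6, 250 bases before to 50 after each start. Either form stood in 13 of 51 windows of the list (25.5%), beside 1.57% of all 32851 windows and 2.47% of those of tested genes. Of the 13 windows, 7 belong to genes that rose, as do 32 of all 51 windows of the list. The windows printed show, in capitals, the matches in genes chosen among these, which rose by 6.82, 6.29 and 2.73. Each sequence runs 5' to 3' along the gene's strand, and the matches printed do not overlap.
Cdc6, chr11:98907981-98908050, plus strand: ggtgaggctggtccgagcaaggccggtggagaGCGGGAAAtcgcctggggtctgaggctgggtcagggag
Mcm5, chr8:75109329-75109398, plus strand: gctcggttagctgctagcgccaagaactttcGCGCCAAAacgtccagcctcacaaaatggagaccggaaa
Mcm6, chr1:128359726-128359835, minus strand: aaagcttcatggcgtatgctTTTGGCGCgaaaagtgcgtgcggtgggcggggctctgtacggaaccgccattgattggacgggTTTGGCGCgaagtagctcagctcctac
A match is a string of letters and shows no binding.

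Mitosis and chromosome segregation gave 43 rises and no fall among 53 genes with 12 arrays, and 47 rises and 1 fall with 10. The median was 3.44 with 12 arrays and 3.25 with 10. Birc5, survivin, part of the complex that corrects chromosome attachment, was at 3.77, 4.53 and 4.46 and 10.22, 9.93 and 9.83 and rose by 5.74 (SE 0.40, adjusted p = 8.14e-06). Top2a, which untangles DNA, was at 5.42, 5.65 and 3.88 and 10.21, 11.29 and 10.98 and rose by 5.84 (SE 0.60, adjusted p = 6.78e-05). Mki67, the proliferation marker, was at 5.18, 5.41 and 4.71 and 9.40, 11.24 and 11.29 and rose by 5.55 (SE 0.72, adjusted p = 0.000409), with the first stimulated array the lowest of its group. Ube2c, a ubiquitin enzyme of the anaphase complex, and Nusap1, a spindle protein, rose by 6.13 and 5.99. Cenpe, the kinetochore motor, was at 3.47, 4.60 and 5.07 on the stimulated arrays and was not called with 12 arrays (change 1.43, adjusted p = 0.0673) but was with 10 (1.28, adjusted p = 0.0318). Genes of this class are known to carry CCAAT boxes bound by NF-Y and the CHR element TTTGAA. With both strands searched, CCAAT stood in 37 of the 50 windows of the list (74.0%) beside 37.4% of all windows, and TTTGAA in 34 (68.0%) beside 17.9%. The windows of Top2a, Cdk1 and Mki67 are shown because each holds both, in capitals, before the start. Cdk1, the mitotic kinase, rose by 5.36 (SE 0.42, adjusted p = 1.71e-05).
Top2a, chr11:99024190-99024419, minus strand: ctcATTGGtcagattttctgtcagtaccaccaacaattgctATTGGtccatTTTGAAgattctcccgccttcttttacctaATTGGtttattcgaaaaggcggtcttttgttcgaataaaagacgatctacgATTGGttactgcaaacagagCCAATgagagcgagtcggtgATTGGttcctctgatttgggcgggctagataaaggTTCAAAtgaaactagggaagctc
Cdk1, chr10:69352913-69353002, minus strand: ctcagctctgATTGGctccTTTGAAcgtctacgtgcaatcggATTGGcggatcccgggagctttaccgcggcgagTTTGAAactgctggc
Mki67, chr7:135716470-135716579, minus strand: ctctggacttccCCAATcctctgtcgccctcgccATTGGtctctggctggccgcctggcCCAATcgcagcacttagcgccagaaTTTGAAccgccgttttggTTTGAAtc
Of the 20 genes that control entry from G1, 8 rose and none fell with 12 arrays, and 11 rose and 1 fell with 10. Ccne2, cyclin E2, rose by 4.98 (SE 0.70, adjusted p = 0.000747), Cdk2, its kinase, by 3.17, and Ccnd2, cyclin D2, by 2.87 with 12 and 1.70 with 10 arrays. The largest rise of this list was in an inhibitor. Cdkn1a, the gene of p21, was at 7.79, 7.63 and 6.61 and 12.75, 12.44 and 12.83, with no overlap, and rose by 5.33 (SE 0.56, adjusted p = 8.82e-05).

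Amino acid metabolism held several of the largest changes. Of 31 measured genes of amino acid synthesis, transport and one-carbon metabolism 20 rose and none fell (median 2.70), and with 10 arrays 24 rose (median 1.77). Beside Cth and Asns, Bcat1, which moves nitrogen from branched-chain amino acids, was at 5.14, 5.28 and 3.97 and 10.78, 11.44 and 10.78 and rose by 6.20 (SE 0.66, adjusted p = 9.54e-05). Gpt2, a mitochondrial alanine aminotransferase, was at 3.67, 5.36 and 3.44 and 10.80, 10.25 and 9.92 and rose by 6.17 (SE 0.71, adjusted p = 0.000169). Chac1, which breaks down glutathione, was at 5.28, 4.85 and 4.15 and 9.63, 9.22 and 8.70 and rose by 4.42 (SE 0.54, adjusted p = 0.000274). The gap between the groups was 5.50, 4.56 and 3.41 units for these 3 genes. Of 17 aminoacyl-tRNA synthetases, which load tRNAs with amino acids, 11 rose and none fell (median 2.35, and 1.57 with 10 arrays). Aars, for alanine, rose by 3.39 (SE 0.53, adjusted p = 0.00157), Yars, for tyrosine, by 3.38, Gars, for glycine, by 3.21 and Tars, for threonine, by 3.26 with 12 and 2.10 with 10 arrays. Atf4, the factor that raises such genes when amino acids are short or the endoplasmic reticulum is stressed, was at 10.35, 9.86 and 7.67 and 12.89, 12.82 and 12.92 and rose by 3.58 (SE 0.61, adjusted p = 0.00307). Of its 3 probe sets only this 1 was called, and the lowest had a change of -0.76. Atf4 acts through the amino acid response element, searched here as TGATGNAA on both strands, where N is any base. The element stood in 6 of 32 windows of the amino acid list (18.8%) and in 5 of 11 windows of the synthetases (45.5%), beside 3.97% of all windows and 2.59% of those of tested genes. Shown in capitals are matches before the start in genes of both lists. These 6 were chosen among genes that rose, Got1, which makes aspartate, by 4.35 (SE 0.59, adjusted p = 0.000607). The element also stood in the windows of Slc1a4 and Slc7a11 of the amino acid list, which were not called with 12 arrays.
Asns, chr6:7693210-7693279, minus strand: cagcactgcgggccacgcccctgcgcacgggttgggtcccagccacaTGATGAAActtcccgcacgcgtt
Chac1, chr2:119351022-119351091, plus strand: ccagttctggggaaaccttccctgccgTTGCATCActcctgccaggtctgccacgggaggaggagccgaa
Got1, chr19:43524666-43524735, minus strand: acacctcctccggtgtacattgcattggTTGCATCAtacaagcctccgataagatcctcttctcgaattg
Aars, chr8:111033702-111033771, plus strand: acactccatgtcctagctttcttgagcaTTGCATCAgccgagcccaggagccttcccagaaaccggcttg
Tars, chr15:11399659-11399718, minus strand: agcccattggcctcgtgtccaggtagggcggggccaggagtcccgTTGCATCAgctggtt
Gars, chr6:55037931-55038000, plus strand: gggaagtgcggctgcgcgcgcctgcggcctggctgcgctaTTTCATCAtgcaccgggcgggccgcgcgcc
A match here, too, is a string of letters.

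**Figure D4:**
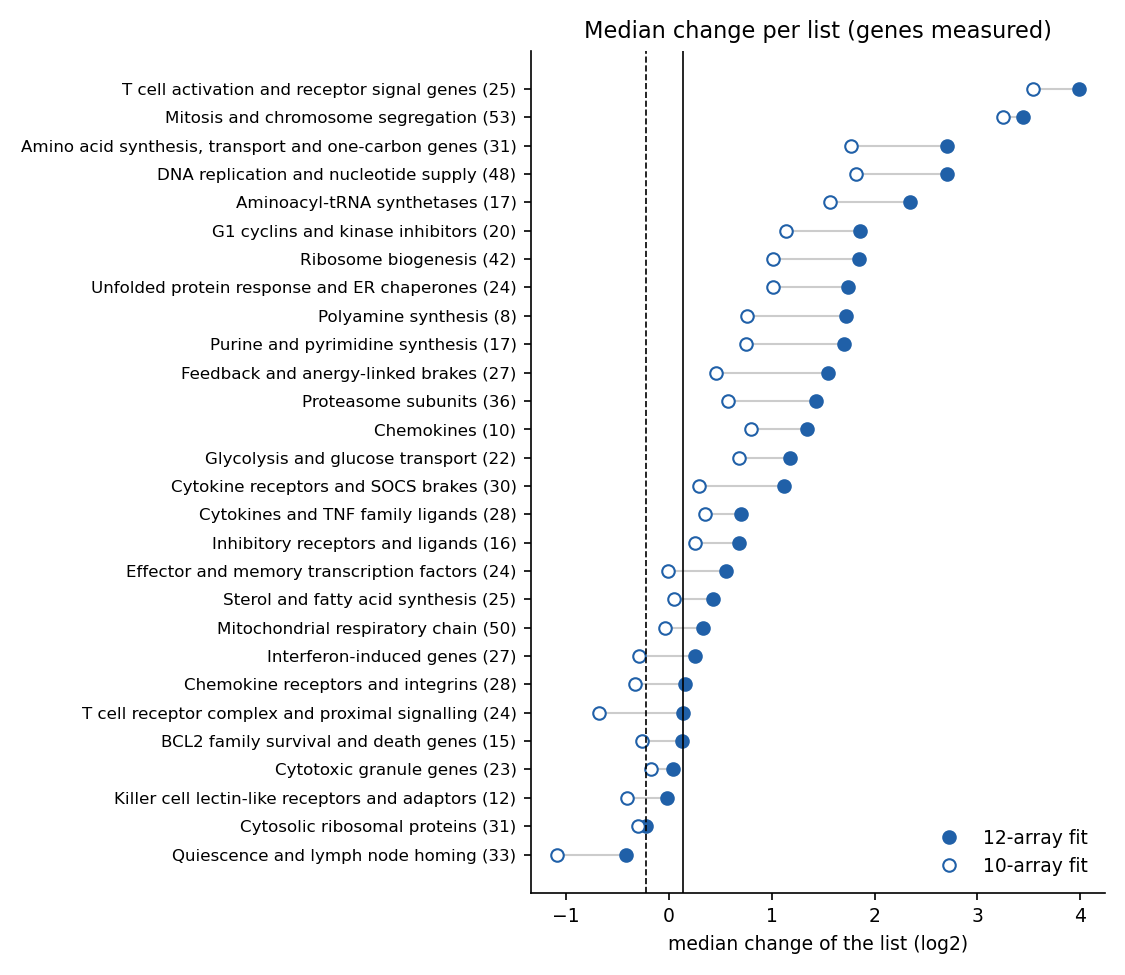
Median change in log2 signal (horizontal axis) of each of the 28 gene lists (rows) in the 12-array fit (filled circles) and in the 10-array fit (open circles), with the medians of all genes, 0.14 and -0.22, as a solid and a dashed line. The lists of activation, mitosis, replication and amino acid metabolism lie furthest right in both fits, and in the 10-array fit the quiescence list lies furthest left.

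Of 17 purine and pyrimidine genes 5 rose and none fell, among them Adsl and Ppat of purine synthesis, by 3.19 (SE 0.85, adjusted p = 0.0361) and 3.01 (SE 0.76, adjusted p = 0.0277), with 2.05 for Adsl with 10 arrays. In the 10-array fit 10 genes of the list rose and 1 fell. Umps, which makes uridine phosphate, rose by 2.76 (SE 0.47, adjusted p = 0.00298). Odc1, the first enzyme of polyamine synthesis, was at 10.16, 10.51 and 6.85 and 13.60, 13.61 and 13.59. Its stimulated values spanned 0.03 units, and it rose by 4.43 (SE 0.78, adjusted p = 0.00383) with 12 arrays and by 3.27 with 10. Of 22 glycolysis and glucose transport genes 6 rose and none fell with 12 arrays, and 10 rose and 2 fell with 10 (medians 1.18 and 0.68). Hk2, the inducible hexokinase, was at 6.37, 6.28 and 4.84 and 10.60, 10.43 and 10.33 and rose by 4.62 (SE 0.64, adjusted p = 0.000648), and Tpi1 and Pkm, later enzymes of the path, by 4.43 and 3.02. Slc2a1, the glucose transporter GLUT1, was at 9.60, 8.74 and 7.76 and 9.85, 9.51 and 9.02. Its groups overlapped, and the change of 0.76 was not called (adjusted p = 0.458). Ldha, lactate dehydrogenase, had a change of 2.12 (adjusted p = 0.115) with 12 and 1.00 (adjusted p = 0.0466) with 10 arrays. Of 25 sterol and fatty acid genes 5 rose (20.0%, beside 7.49% of all genes) and none fell with 12 arrays (median 0.43). With 10 arrays 7 rose and 4 fell (median 0.05), where 16.5% of all genes rose and 21.4% fell. Scd2, which puts a double bond into fatty acids, was at 5.69, 5.73 and 4.02 and 11.91, 10.79 and 11.46 and rose by 6.24 (SE 0.54, adjusted p = 2.46e-05), and Sqle, of the sterol path, rose by 3.62 with 12 and 2.45 with 10 arrays.

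Of 42 ribosome biogenesis genes 8 rose and none fell with 12 arrays, and 22 with 10, while 34 were higher on all stimulated than on all unstimulated arrays, beside 26.8% of all genes. The list's median was 1.85, and 1.01 with 10 arrays. Ncl, nucleolin, was at 10.77, 11.19 and 7.01 and 12.53, 13.35 and 13.60 and rose by 3.50 (SE 0.83, adjusted p = 0.0202), and Nop58, a guide protein of ribosomal RNA modification, rose by 3.67 (SE 0.93, adjusted p = 0.0287). With 10 arrays these rises were 2.18 and 2.27. The E-box CACGTG, a site of MYC, stood in 7 of 41 windows of this list (17.1%) and 3 of 22 of the purine and pyrimidine list (13.6%), beside 7.15% of all windows and 9.11% of those of tested genes. Among 31 ribosomal protein genes none rose and Rpl37 fell with 12 arrays, from 12.02, 11.78 and 12.22 to 9.90, 9.56 and 9.65. It fell by 2.30 (SE 0.41, adjusted p = 0.00393). With 10 arrays 1 gene of the list rose and 8 fell. 17 of them were lower on all stimulated arrays, beside 13.0% of all genes, and the list's median was -0.22. Of 24 genes of the unfolded protein response 7 rose and none fell with 12 arrays, and 13 rose and 1 fell with 10. Atf4 was among the 12-array rises, and the disulfide isomerases P4hb and Pdia3 rose by 2.94 and 2.68 with 12 arrays and 1.79 and 2.01 with 10. Of 36 proteasome genes 4 rose (11.1%, beside 7.49% of all genes) and none fell with 12 arrays. With 10 arrays 12 rose and 2 fell, where 16.5% of all genes rose and 21.4% fell. Among the 12-array rises was Psme3, an activator cap, at 2.99 (SE 0.61, adjusted p = 0.00868).

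The respiratory chain had 1 rise and 2 falls among 50 genes with 12 arrays (2% and 4%, beside 7.49% and 0.863% of all genes) and a median of 0.33. With 10 arrays 11 rose and 9 fell, with a median of -0.03. Atp5b, the catalytic subunit of ATP synthase, was at 9.96, 9.19 and 5.67 and 12.87, 12.89 and 12.79 and rose by 4.57 (SE 0.81, adjusted p = 0.00391), with 3.27 in the 10-array fit. Of the small subunits of complex I, Ndufa2 fell by 1.38 and Ndufa5 fell by 1.51. Ndufa2 was read alike within each group, at 13.17, 13.11 and 13.15 and 11.75, 11.77 and 11.76, the third unstimulated array included. Of 15 BCL2 family genes 1 rose with 12 arrays (6.67%, beside 7.49% of all genes), and 3 rose and 3 fell with 10. The rise was in Pmaip1, the death gene NOXA, from 5.30, 5.52 and 4.29 to 8.28, 8.06 and 8.55 (3.26, SE 0.45, adjusted p = 0.000637). The survival gene Bcl2l1 was at 8.53, 8.01 and 5.59 and 10.23, 10.20 and 10.57, with a change of 2.96 (adjusted p = 0.0539) with 12 arrays and 2.07 (adjusted p = 0.00296) with 10. Bcl2, which interleukin 7 signals sustain, was called in neither fit (0.22 and -1.02, adjusted p = 0.939 and 0.0579). Bcl2l11, the death gene BIM, had a change of -1.43 (adjusted p = 0.253) with 12 arrays and -2.43 (adjusted p = 0.00319) with 10. Its 5 probe sets ran from -1.43 to 1.57 with 12 arrays, and 1 of the others was called as a rise. No gene of 27 interferon-induced genes was called with 12 arrays. With 10 arrays 1 rose and 4 fell, where 16.5% of all genes rose and 21.4% fell. The largest changes there were in Igtp (2.58, adjusted p = 0.0885) and Iigp1 (2.52, adjusted p = 0.120), both GTPases of cell-autonomous defence. Igtp was called with 10 arrays (1.39, adjusted p = 0.0279). Of 27 genes of that list, 5 had a limma p below 0.05 before adjustment with 12 arrays, beside 2894 of all 12393 genes.

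Leaving out the third arrays gave calls to many further genes. The largest such falls, after Ccr9, were in Sgk1, a salt and hormone regulated kinase (-3.40 with 10 arrays, and -2.01 with 12, adjusted p = 0.000605 and 0.185), and in G0s2, a lipase inhibitor (-3.34 and -2.38, adjusted p = 0.000966 and 0.0545). Cxcr6, a chemokine receptor of tissue-seeking T cells, was at 9.28, 9.66 and 2.78 and 6.11, 6.02 and 6.37. Here the third unstimulated array lay below every stimulated array while the first and second lay above them, and the change went from -1.08 (adjusted p = 0.754) to -3.31 (adjusted p = 9.4e-05). The largest rises so gained were Stk39, a kinase of ion transport (2.50 with 10 arrays, adjusted p = 0.00119), Slfn3 (2.47, adjusted p = 0.0353) and Cks2, a small partner of cyclin-dependent kinases (2.38, adjusted p = 0.000361). Cks2 was at 10.17, 10.51 and 4.32 and 12.72, 12.89 and 12.54, and with 12 arrays its larger change of 4.39 was not called (adjusted p = 0.0504).

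Markers of other cells were read the same way. None of 14 B cell, 15 myeloid, 5 NK cell and 5 red cell markers was called with 12 arrays. With 10 arrays 1 B cell marker rose, and 5 myeloid, 2 NK cell and 2 red cell markers fell. In that fit 16.5% of all genes rose and 21.4% fell. The summed linear signal of the myeloid list was 6242.3, 6469.0 and 2724.0 on unstimulated arrays and 2905.6, 2533.3 and 2635.1 on stimulated arrays. That of the B cell list was 955.2, 901.6 and 509.0 and then 1158.6, 1074.6 and 939.0. S100a8, a neutrophil gene, was at 4.97, 4.52 and 7.89 and 4.57, 4.64 and 4.53, so the third unstimulated array had the highest level. Whether other cells contribute to the changes was not tested. Of 7 regulatory T cell markers 4 rose and none fell with 12 arrays, and 4 rose and 2 fell with 10. The rises were Il2ra, Ctla4, Nrp1 and Tnfrsf18 (3.00, and 1.65 with 10 arrays), all of which activated T cells also express. Foxp3, the defining factor, stayed at 4.63, 4.54 and 3.68 and 4.62, 4.40 and 4.40. Of the 7 CD8 lineage markers none was called with 12 arrays, and 1 rose and 4 fell with 10, among them Cd8b1 (-1.58, adjusted p = 0.00805) and Ctsw (-2.60, adjusted p = 0.00372).

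The response of CD8 cells was set against that of CD4 cells stimulated in the same way, as the contrast of both changes. The 2 cell types also carry different receptors, so lineage and receptor cannot be told apart. With 12 arrays no gene was called (0.0% of genes), with 70 at an unadjusted p below 0.05 in limma. With 10 arrays 308 genes differed (2.49%), 89 with a higher and 219 with a lower change in CD8 cells. Of the 727 list genes 5 were higher and 34 lower. The 5 higher ones were Klrc1, Xcl1, Socs2, Cxcl10 and Gzmk. Of these Gzmk did not rise in CD8 cells but was lower with 10 arrays (-0.73, adjusted p = 0.0121). Klrc1 rose by 4.39 in CD8 cells and had a change of 0.23 in CD4 cells, and the contrast with 10 arrays was 3.97 (SE 0.57, adjusted p = 0.0187). Xcl1 and Cxcl10 had contrasts of 3.66 and 2.73. Among the lower ones, Nkg7 had a contrast of -3.79 (SE 0.53), Ccl5 of -3.62 (SE 0.56) and Ccr9 of -4.29 (SE 0.75). Dusp6, the lactate carrier gene Slc16a1 and Myc rose in both cell types but less in CD8 cells, with contrasts of -3.33, -3.09 and -1.74. The rise of Slc16a1 in CD8 cells was 3.57 with 12 arrays and 1.98 with 10. Gzmb was not among the called ones, with 4.13 (SE 1.50, adjusted p = 0.154). Ifng had 2.50 (SE 1.58, adjusted p = 0.370).

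Day 5 arrays, which share no array with day 2, show where these genes stood after 3 further days in hosts. The hosts of continuous cells express their antigen. For those cells a change kept from day 2 and a new change cannot be told apart. Transient and continuous cells share their 3 unstimulated day 5 controls, so the 2 day 5 comparisons are not independent of each other. Against those controls 2020 genes were higher and 1917 lower in transient cells (16.3% and 15.5%). In continuous cells 2658 were higher and 3209 lower (21.4% and 25.9%). The 3' minus 5' beta-actin difference was 1.92 to 2.44 in unstimulated, 0.66 to 1.02 in transient and 0.31 to 0.56 in continuous cells. Its part in these counts was not tested. Of the 928 genes that rose on day 2, 241 were higher (26.0%) and 133 lower in transient cells, and they make up 11.9% of the transient rises. In continuous cells 624 of the 928 were higher (67.2%) and 47 lower, 23.5% of the continuous rises. Of the 107 falls, 22 were lower and 22 higher in transient cells, and 79 lower (73.8%) and 4 higher in continuous cells, which is 2.46% of the continuous falls.

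Plscr1, Ctla4, Tbx21, Klrc1 and Cd200 were higher in both transient and continuous cells. Ctla4 was at 6.65 ± 0.12 in unstimulated, 10.58 ± 0.24 in transient and 10.45 ± 0.73 in continuous cells (SD, n = 3 each), with changes of 3.94 and 3.80, and Tbx21 had changes of 3.02 and 3.23. Gzmb, Ifng, Irf4 and Mki67 were higher in continuous cells. Gzmb was at 6.72 ± 0.47, 7.99 ± 0.67 and 12.12 ± 1.91, and its change of 1.27 in transient cells was not called (adjusted p = 0.184) while that of 5.40 in continuous cells was (adjusted p = 2.85e-05). Ifng changed by 5.09 in continuous cells, and by 0.57 (adjusted p = 0.518) in transient cells. Cth, the largest rise of day 2, was at 3.94 ± 0.14, 3.54 ± 0.03 and 4.05 ± 0.13 on day 5. It was lower in transient cells (-0.41, adjusted p = 0.0300) and not called in continuous cells (0.11, adjusted p = 0.511). Gpt2, Chac1 and Csf2 were called in neither day 5 comparison, with changes between -0.11 and -0.39 for Chac1, while Asns was higher in both (1.66 and 4.44). Klf2, the leading fall, was at 10.79 ± 0.26, 11.94 ± 0.03 and 11.29 ± 0.34, so it was higher in both day 5 groups than in their controls (1.15 and 0.50). Il7r was at 11.97 ± 0.32 and 12.07 ± 0.08 in unstimulated and transient and 8.41 ± 0.81 in continuous cells, lower by call in the last (-3.55). Ccr9 was lower in both (-5.87 and -5.68), at 10.30 ± 0.42 in unstimulated cells and 4.44 ± 0.06 and 4.63 ± 0.27 in the others. By list, 50 of 53 mitosis genes were higher in continuous and 5 in transient cells, and 41 and 4 of 48 replication genes, of which 18 were lower in transient cells. Of the 31 amino acid genes 14 were higher in continuous and 4 in transient cells.

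**Figure D5:**
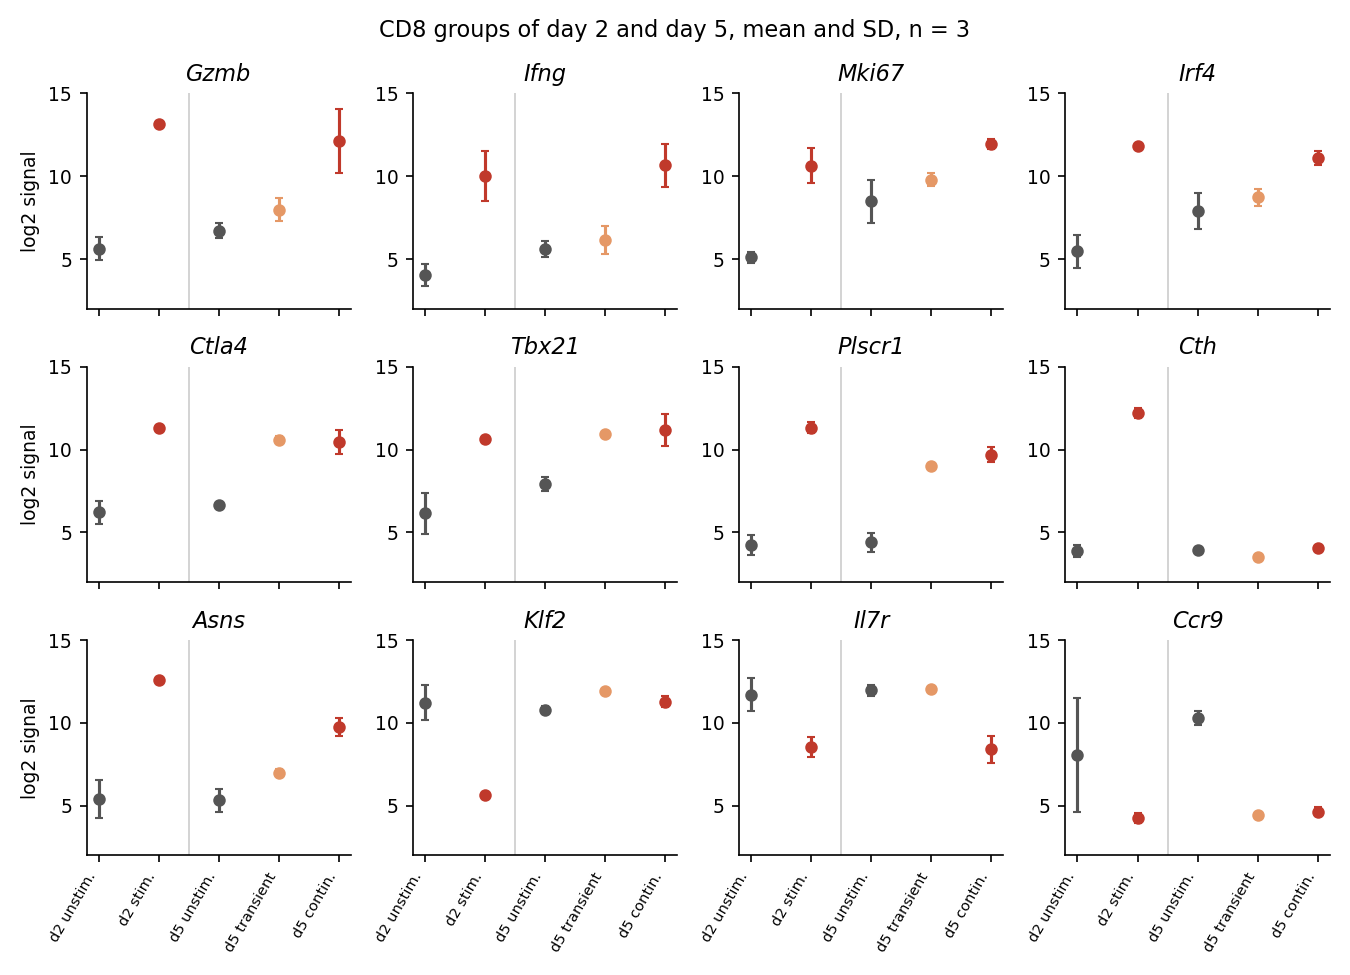
Mean log2 signal (vertical axis, bars are SD, n = 3 arrays) of 12 genes in the 5 CD8 groups, from left to right unstimulated and stimulated cells of day 2 and unstimulated, transient and continuous cells of day 5. Ctla4 and Tbx21 are high in both stimulated groups of day 5, Gzmb, Ifng and Mki67 are highest there in continuous cells, and Cth is low in all 3. The unstimulated group of day 2 includes the third array.

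Single arrays and probe sets bear on the calls as follows. Of 118 called genes named here, 77 kept their call when any 1 CD8 array of day 2 was left out. The other 41 lost it in at least 1 such fit, 26 of them only where a stimulated array was left out. Those that lost it without the first or second unstimulated array were Ccl5, Cd3d, Dgkz, Il7r, Ndufa2, Ndufa5 and S1pr4. Those that lost it without the third unstimulated CD8 array alone were Adsl, Ccr7, Cd5, Il15ra, Il2, Ndufa2, Ndufa5, Nfatc1, P4hb and Xcl1, though with 10 arrays all of these were called. Of the called genes named, 46 have more than 1 probe set. In 20 of them every probe set was called in the same direction, and in the others at least 1 was not called. None was called in the opposite direction. In 5 of the genes, Atf4, Lif, Nfkb2, Psme3 and Top2a, a probe set has an uncalled change of the opposite sign. Of the genes named that were not called with 12 arrays, Bcl2l11, Cks2, Hspa5, Mcm3, Rgs16 and Stk39 have another probe set that was called there as a rise.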

How the data were processed

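The values are log2 signals per probe set on Affymetrix Mouse 430A2 arrays, deposited by the authors, who made them with RMA per the submitters' processing notes, in a version not given in the sources used here. The array medians differ, so 1 common quantile step does not describe all columns. No scanner files were read, and the number of arrays limits the precision. Of 22690 probe sets, 64 controls, 691 with several symbols and 1555 with none were left out. Of the 20380 with 1 symbol, 20351 were matched to RefSeq genes, and a gene was read from its probe set with the highest mean over the 28 arrays, which gave 12393 genes.

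Group means were fitted with limma 3.58.1 in R 4.3.3, on the 12 arrays of day 2 or the 16 of day 5, with two-sided tests and Benjamini-Hochberg adjustment over all genes. The code was tested on simulated data. The genes and lists were chosen with earlier results of these data known. Named genes are the 10 largest called rises and 10 largest called falls without overlap of the arrays, up to 5 called rises, 5 called falls and 3 uncalled genes of each list, up to 6 rises and 6 falls called only without the third unstimulated arrays, and a set of T cell genes, of which the text gives a part. Cdk1, Ctsw, Foxp3, Got1, Gzmk, Il15ra, Il2rb, Lif, Lta, Mcm6, Runx3, S100a8, Slc1a4, Slc7a11, Thy1 and Tnfrsf18 were added after their values were seen. Promoter windows are those of RefSeq on GRCm38.p6, without the windows on chr18.

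Replicate numbers were checked by correlating deviations from group means between arrays that share a number. This gave 0.50, 0.36 and 0.15 for transient against unstimulated cells on day 5, a hint from the data that the numbers pair these arrays. The counts reported for this comparison come from a fit without a replicate block. A block moved them to 2017 higher and 1853 lower.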

Additional observations from a re-analysis of the deposited data

Results flagged for a closer look

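With the third unstimulated array of each cell type left out, limma's contrast of the CD8 and the CD4 change on day 2 was called for 19 of the genes named in the text, and the value given is the CD8 minus CD4 difference in change, in log2 units. In the fit of all 12 arrays none of these contrasts was called. Higher contrasts were 3.97 for Klrc1, 3.66 for Xcl1, 2.73 for Cxcl10 and 1.26 for Gzmk, next to 2.95 for Socs2. The change of Gzmk in CD8 cells was itself negative in this fit (-0.73). Lower contrasts of genes whose change in CD8 cells was negative in this fit were Ccr9 (-4.29), Nkg7 (-3.79), Ccl5 (-3.62), Cxcr6 (-1.98), Il6st (-2.54), Il6ra (-1.71) and Klf2 (-1.65). Genes that rose in both cell types and less in CD8 cells were Dusp6 (-3.33), Slc16a1 (-3.09), Myc (-1.74), Tars (-1.70), Irf4 (-1.47) and Pdia3 (-1.33).

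Cd4, the coreceptor of helper cells, was lower on all stimulated than on all unstimulated CD8 arrays, at 7.35, 7.21 and 7.02 and 6.32, 6.04 and 6.44, while it was higher on all stimulated than on all unstimulated CD4 arrays. Its contrast was -2.62 with 12 arrays, where the difference was not called (adjusted p = 1.0), and -1.65 with 10 arrays (adjusted p = 0.0247). On the third unstimulated CD4 array, which only the 12-array value includes, Cd4 stood at 5.40. Groups of 3 arrays are too small for a test of a single array that stands apart.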

How the results depend on the processing

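Of the 118 called genes named, none changed direction under any alternative tried. With all probe sets fitted together all kept the call, but each gene was read from the same probe set as before. That setting thus does not compare the probe sets of a gene. All also kept the call with median centring, array weights, a replicate block, all 28 arrays in 1 fit, and without the third unstimulated arrays. 81 kept it with the 6 CD8 arrays alone, 108 with the mean of probe sets, 115 with quantile normalization and 77 at an adjusted p below 0.01. The counts of rises and falls in CD8 cells moved with the setting. They were 1469 rises with all probe sets, counted there per probe set and not per gene. At an adjusted p below 0.01 they were 338 rises and 28 falls. From the 6 CD8 arrays alone they were 350 and 69, and with all 28 arrays in 1 fit 2893 and 502. They were 1300 falls with quantile normalization, 1892 and 3091 with median centring and 2702 and 3718 with array weights. Without the third unstimulated arrays they were 2040 and 2651, with quantile normalization added 1445 and 1671, and 2656 and 3568 from the 5 CD8 arrays left. Leaving out each CD8 array in turn gave 364 to 1629 rises and 23 to 265 falls. The cause of the shifts was not tested.

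On day 2 the correlations of arrays that share a number were 0.13, 0.06 and -0.16, and 3 of 6 arrays correlated best with their own number. The third unstimulated array enters the group mean behind these deviations, so the check cannot tell whether samples with the same number are paired. A replicate block gave 1412 rises and 138 falls on day 2. For continuous cells of day 5, with 0.16, 0.21 and -0.16 and 4 of 6 arrays, it gave 2636 and 3148. The contrast of CD8 and CD4 changes was called by limma for 0 genes with 12 arrays (70 at an unadjusted p below 0.05), 1 with variance trend, 1 with median centring, 11 with array weights, 4 with all 28 arrays, 308 without the third unstimulated arrays and 276 with quantile normalization added. Day 5 counts stayed within 1.5 times of those reported under each alternative run.

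Sign changes were met only in genes not called with 12 arrays, where "with both" means 10 arrays and quantile normalization, and the 5 CD8 arrays alone gave the 10-array values. Bcl2, 0.22 with 12 arrays, was -0.53 with quantile normalization, -0.40 with median centring, -1.11 with array weights, -1.02 with 10 arrays, -1.32 with both and -1.02 to 0.98 with each CD8 array left out in turn (turned by the third unstimulated). Bcl2l11, -1.43 with 12 arrays, was 0.16 with the mean of probe sets. Cd8b1, 0.79 with 12 arrays, was -1.38 with array weights, -1.58 with 10 arrays, -1.80 with both and -1.58 to 2.12 with each CD8 array left out in turn (turned by the third unstimulated). Ctsw, -0.80 with 12 arrays, was -2.60 to 0.29 with each CD8 array left out in turn (turned by the first unstimulated). Cxcr6, -1.08 with 12 arrays, was -3.31 to 0.13 with each CD8 array left out in turn (turned by the second unstimulated). Eomes, 0.16 with 12 arrays, was -0.49 with quantile normalization, -0.46 with median centring, -1.13 with array weights, -1.004 with 10 arrays, -1.26 with both and -1.004 to 0.82 with each CD8 array left out in turn (turned by the third unstimulated and the first stimulated). Havcr2, -0.21 with 12 arrays, was 0.039 with both. Lef1, 0.089 with 12 arrays, was -0.20 with quantile normalization, -0.53 with median centring, -1.20 with array weights, -1.12 with 10 arrays, -1.21 with both and -1.12 to 0.76 with each CD8 array left out in turn (turned by the third unstimulated and the first stimulated). Nkg7, 1.14 with 12 arrays, was -0.91 with array weights, -1.01 with 10 arrays, -1.12 with both and -1.01 to 2.24 with each CD8 array left out in turn (turned by the third unstimulated). Prf1, 0.16 with 12 arrays, was -0.62 with quantile normalization, -0.46 with median centring, -0.40 with array weights, -0.47 with 10 arrays, -0.69 with both and -0.47 to 0.59 with each CD8 array left out in turn (turned by the third unstimulated). Slc2a1, 0.76 with 12 arrays, was -0.32 with quantile normalization and -0.074 with both. Zap70, 1.47 with 12 arrays, was -0.16 with both. The other named genes kept their sign under the alternatives run. The causes were not tested.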

Other observations

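Of 28 chemokine receptor and integrin genes 2 rose, Cd44 and Ccr7 (7.14%, beside 7.49% of all genes), and 1 fell, S1pr1 (3.57%, beside 0.863%). With 10 arrays 5 rose and 9 fell. Icam1, the adhesion ligand of LFA-1, was at 9.55, 9.41 and 4.55 and 11.30, 11.07 and 11.32, with a change of 3.40 (adjusted p = 0.0617) with 12 arrays and 1.76 (adjusted p = 0.0269) with 10. Itgb2, a chain of LFA-1 itself, was called in neither fit (2.05 and 0.65, adjusted p = 0.203 and 0.218). In the polyamine path, Azin1, which shields ornithine decarboxylase from breakdown, rose by 3.68 (SE 0.90, adjusted p = 0.0237) beside Odc1, with 2.38 in the 10-array fit, and Srm, spermidine synthase, had a change of 2.10 (adjusted p = 0.0529) with 12 arrays and 1.30 (adjusted p = 0.0288) with 10. In the unfolded protein response the sensor gene Atf6 rose by 2.34 (SE 0.50, adjusted p = 0.0121), and the chaperone gene Hspa5, the gene of BiP, was at 11.31, 11.52 and 7.31 and 12.77, 12.84 and 13.30 with a change of 2.92 that was not called with 12 arrays (adjusted p = 0.0529) and of 1.55 with 10 (adjusted p = 0.00576).

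Further genes were called with 10 arrays and not with 12. Aldh2, a mitochondrial aldehyde dehydrogenase, was at 5.00, 5.04 and 5.49 and 7.63, 6.61 and 7.34, and Cog6, of the Golgi tethering complex, at 6.00, 7.44 and 7.40 and 8.97, 8.83 and 8.87. On the third unstimulated array Aldh2 was the highest of its group and Cog6 lay between the other two. Their changes with 10 arrays were 2.18 (adjusted p = 0.0147) and 2.17 (adjusted p = 0.0355). Rgs16, a G protein brake, had 2.22 (adjusted p = 0.00322), and Drc1, best known from cilia, -3.03 (adjusted p = 0.00262). Cdk4, the kinase of cyclin D, was at 10.60, 10.59 and 6.24 and 11.73, 11.85 and 11.77 and had a change of 2.64 with 12 arrays (adjusted p = 0.0816) and of 1.19 with 10 (adjusted p = 0.0117). Cd274, the gene of PD-L1, was at 6.69, 7.25 and 4.37 and 8.46, 8.26 and 8.65 and had 1.48 with 10 arrays (adjusted p = 0.00727).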
